A study of Mus musculus with 74 samples.

Results

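The 30 genes described here encode enzymes, regulators and carriers of sterol and fatty acid synthesis. They were chosen by gene symbol from a fixed list and all 30 were found among the 24851 genes of each RNA table. Cholesterol is built from acetyl-CoA through mevalonate, squalene and lanosterol, and fatty acids are built from the same acetyl-CoA through malonyl-CoA. Most of these genes are targets of the transcription factors SREBP-1 and SREBP-2, which the Insig proteins hold with their escort Scap in the endoplasmic reticulum when sterols are plentiful. In macrophages the pathway is known to respond to microbial ligands, and several of its products take part in inflammatory signalling.

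The values come from 18 RNA libraries of the 74 samples of the series, in 9 groups of 2. RAW264.7, a mouse macrophage-like cell line, was compared with lines 264 and 3205, which carry a RAW264.7 source label, at 0, 60 and 120 min of lipopolysaccharide (LPS). The series describes wild type, hypomorphic and CRISPR-made H3f3a/H3f3b double knockout lines, where H3f3a and H3f3b are the genes of the histone variant H3.3, and which of these the numbers 264 and 3205 stand for is not in the labels. LPS from S.typhosa at 100 ng/mL is stated for primary macrophages, and no dose, culture or clone number is given for the lines. The title of the series concerns phosphorylation of H3.3 and stimulated transcription, so each line's response and each line's level against RAW264.7 were examined for these genes.

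The libraries held 13.1 M to 53.9 M reads. H3f3a ranged from 2055 to 3109 normalized reads over the 6 RAW264.7 libraries, from 172 to 236 over those of line 264 and from 37.5 to 76.2 over those of line 3205. H3f3b ranged from 13623 to 34155, from 5642 to 17765 and from 7177 to 13284 in the same order. A normalized read is a read count divided by 1 size factor per library. The tissue label reads bone marrow derived macrophage while the source label names RAW264.7. The 8 macrophage markers present in the tables were expressed in all 18 libraries, with summed levels of 387059 to 506280 normalized reads in RAW264.7, 147639 to 246505 in line 264 and 211270 to 282811 in line 3205. Summed B cell markers were at 1.48 to 5.44, 1.82 to 6.11 and 22.2 to 152 in the same order. The 1 measured T and NK cell marker did not exceed 11.1 and the summed fibroblast markers did not exceed 3.48 in any library. In the unstimulated pair of line 3205, replicate 1 was below replicate 2 for 26 of the 30 genes with a median log2 ratio of 0.50 (replicate 2 over 1), while 45.9% of all genes were higher in replicate 2. The other pairs of line 3205 leaned the same way, with 27 of 30 and a median of 0.25 at 60 min and 25 of 30 and a median of 0.38 at 120 min, as did RAW264.7 at 120 min with 24 of 30 and a median of 0.21. Line 264 leaned the other way at 0 min, with 22 of 30 lower in replicate 2 and a median of -0.29. At 60 min it had 18 of 30 lower and a median of -0.07. In line 264 at 120 min and in RAW264.7 at 0 and at 60 min, 17 of 30 were higher in replicate 2. The unstimulated line 3205 pair had the largest median of the 9 pairs. Most called values that rest on it are therefore also given without each of its libraries. Nothing in the labels says that replicates came from separate cultures, so a p-value here covers the spread among the deposited libraries alone, which may be technical.

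The upstream sequences of Hmgcs1, Insig1 and Cyp51 are shown because these 3 genes had the largest limma log2 fold changes at 60 min of LPS in RAW264.7. Each is the 250 bases before the annotated start in the gene's direction (5′ to 3′), from RefSeq on GRCm38.p6. Capitals mark matches on either strand to the sterol regulatory element TCACNCCAC, the E-box CACGTG or the NF-Y box CCAAT, which reads ATTGG on the other strand.
Hmgcs1, plus strand, chr13:119690101-119690350: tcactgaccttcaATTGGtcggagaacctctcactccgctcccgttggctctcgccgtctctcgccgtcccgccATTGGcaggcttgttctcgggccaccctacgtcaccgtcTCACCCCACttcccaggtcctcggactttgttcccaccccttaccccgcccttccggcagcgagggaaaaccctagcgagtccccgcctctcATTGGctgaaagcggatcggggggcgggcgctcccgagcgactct
Insig1, plus strand, chr5:28071162-28071411: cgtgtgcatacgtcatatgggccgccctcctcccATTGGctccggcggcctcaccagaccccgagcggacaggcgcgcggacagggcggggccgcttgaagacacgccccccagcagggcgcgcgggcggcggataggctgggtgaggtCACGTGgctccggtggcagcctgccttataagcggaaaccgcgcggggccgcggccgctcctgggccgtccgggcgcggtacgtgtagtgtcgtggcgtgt
Cyp51, minus strand, chr5:4104698-4104947: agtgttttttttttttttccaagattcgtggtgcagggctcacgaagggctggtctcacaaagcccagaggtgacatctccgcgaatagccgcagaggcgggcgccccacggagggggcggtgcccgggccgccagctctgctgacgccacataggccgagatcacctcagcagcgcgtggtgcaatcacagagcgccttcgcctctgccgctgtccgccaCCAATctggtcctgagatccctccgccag

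In these 3 stretches no match shares a base with another. Hmgcs1 carried the sterol element 137 bases before the start and 3 NF-Y boxes at 237, 176 and 45 bases. Insig1 carried an E-box at 101 bases and an NF-Y box at 216 bases. Cyp51 carried 1 NF-Y box at 29 bases. RefSeq promoter entries run from 250 bases before to 50 after a start. They were found for 24 of the 30 genes, 32 entries in all, since a gene can have more than 1 start. Only the 250 bases before each start were searched, in these entries and in all promoters. The sterol element in this strict spelling was found in 1 of the 32 entries, that of Hmgcs1, and in 1.05% of all 32851 promoters. The E-box was found in 5 of 32 (15.6%) against 6.02% of all promoters, in Hsd17b7, Sc5d, Dhcr7, Insig1 and Scap. The NF-Y box was found in 20 of 32 (62.5%) against 33.8% of all promoters. These matches are a description of letters, and no binding was measured here.

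Hmgcs1 and Insig1 rose within 60 min of LPS in all 3 lines. Hmgcs1, the cytosolic HMG-CoA synthase that opens the mevalonate route, rose 2.79-fold in RAW264.7, 2.47-fold in line 264 and 2.59-fold in line 3205. Insig1, the sterol-regulated anchor that retains the Scap and SREBP complex, rose 4.17-fold, 4.72-fold and 5.26-fold in the same order. No other of the 30 genes passed the test at 60 min in the fit without a replicate term, so 2 of 30 rose and 0 fell in each line. Over all 17301 genes tested, 1.66% rose and 1.32% fell in RAW264.7. In line 264 the shares were 0.821% and 0.37%, and line 3205 had 0.948% and 0.277%. At an unadjusted p below 0.05, the number of the 30 genes was 5, 4 and 6.

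In RAW264.7, Hmgcs1 had 6054 and 5699 normalized reads before LPS and 15428 and 17365 after 60 min. Line 264 had 5734 and 4646 before and 14002 and 11601 after, and line 3205 had 5015 and 7264 before and 14434 and 16935 after. The stimulated libraries of every line lay above all 6 unstimulated ones, whose highest value was 7264. The limma log2 fold changes were 1.48 ± 0.19 (SE, n = 2 per group, adjusted p = 0.0023) in RAW264.7, 1.30 ± 0.19 (adjusted p = 0.0079) in line 264 and 1.37 ± 0.19 (adjusted p = 0.0056) in line 3205. The RAW264.7 call held without any 1 of its 4 libraries (limma adjusted p 0.020 to 0.036). The line 264 call was lost without replicate 2 at 0 min (1.15, limma adjusted p = 0.068) or replicate 1 at 60 min (1.17, adjusted p = 0.086), and the line 3205 call without replicate 2 at 60 min (1.26, adjusted p = 0.071). Without replicate 1 or replicate 2 of the unstimulated line 3205 the value there was 1.11 (limma adjusted p = 0.032) and 1.64 (limma adjusted p = 0.0031).

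In RAW264.7, Insig1 went from 3230 and 3562 normalized reads to 12906 and 15538. In line 264 it went from 2311 and 2825 to 11561 and 12571, and in line 3205 from 1460 and 3601 to 10137 and 14372. The lowest stimulated value, 10137, was above the highest unstimulated one. The limma log2 fold changes were 2.06 ± 0.34 (SE, adjusted p = 0.010), 2.24 ± 0.34 (adjusted p = 0.011) and 2.4 ± 0.34 (adjusted p = 0.0071). In line 3205 the value was 1.74 without replicate 1 and 3.05 without replicate 2 of the unstimulated pair (limma adjusted p = 0.0074 and 2.8e-04). In RAW264.7 the call was lost without any 1 of its 4 libraries, with log2 fold changes of 1.93 to 2.20 (limma adjusted p 0.058 to 0.11). It was lost in line 264 without 3 of the 4 single libraries (2.09 to 2.30, limma adjusted p 0.071 to 0.11) and in line 3205 without replicate 2 at 60 min (2.14, adjusted p = 0.081).

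**Figure D1:**
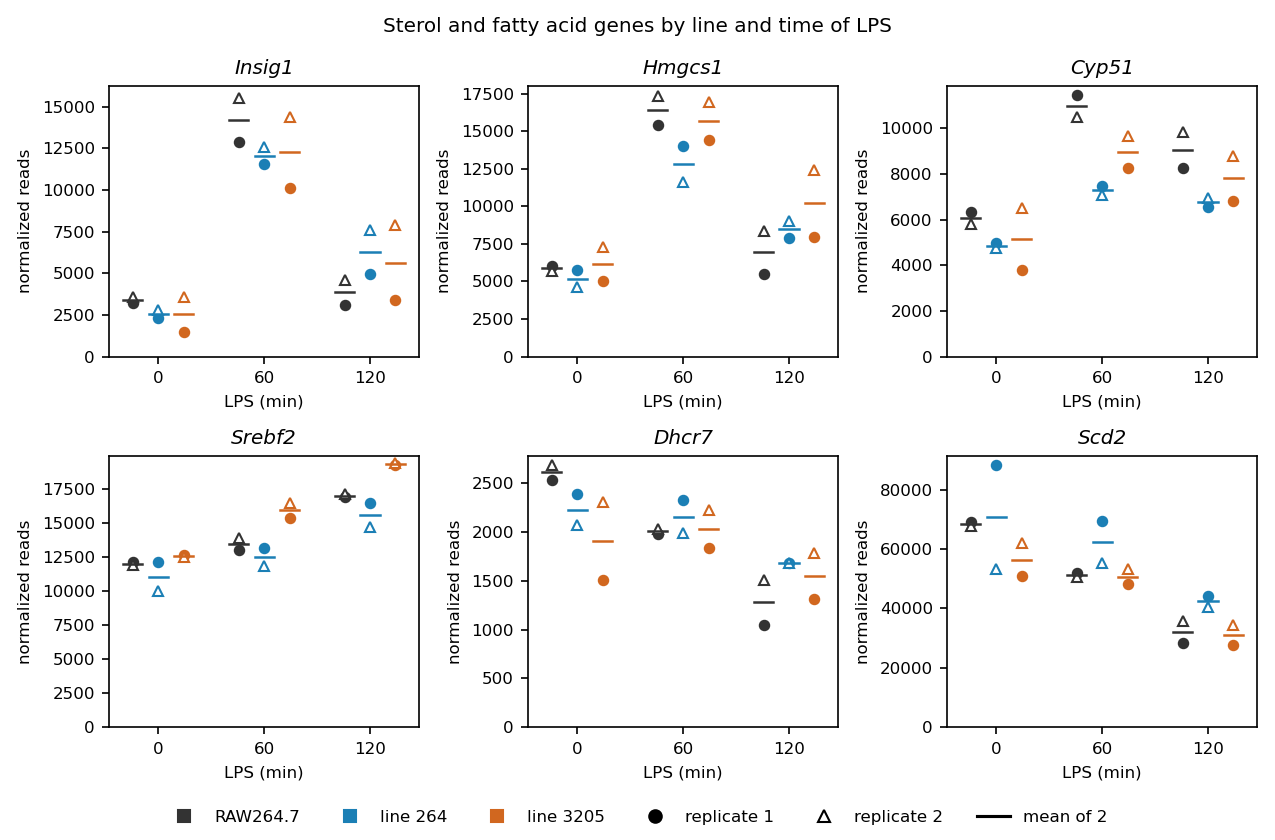
Normalized reads (y axis, linear from 0) of 6 genes against minutes of LPS (x axis) in RAW264.7, line 264 and line 3205. Circles are replicate 1, triangles replicate 2 and bars the mean of both. Insig1 and Hmgcs1 peak at 60 min in all 3 lines, Srebf2 is highest at 120 min, and Dhcr7 and Scd2 are lowest at 120 min.

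Cyp51, the lanosterol demethylase, was next in size. RAW264.7 had 6335 and 5805 normalized reads of it before and 11472 and 10479 after 60 min, line 264 had 4969 and 4746 before and 7495 and 7079 after, and line 3205 had 3808 and 6530 before and 8260 and 9653 after. The libraries of each line separated by time without overlap. The limma log2 fold changes of 0.85 ± 0.21 (SE, adjusted p = 0.067), 0.58 ± 0.21 (adjusted p = 0.41) and 0.84 ± 0.21 (adjusted p = 0.13) did not pass the test. With the replicate number as a block they passed in RAW264.7 (limma adjusted p = 0.022) and line 3205 (adjusted p = 0.039), which made 3 of 30 genes higher in each of those lines, beside 3.7% and 2.33% of all genes. With the block 2 were higher in line 264 (2.1%) and 0 lower in the 3 lines (4.38%, 1.89% and 1.66%). The RAW264.7 value also passed once either unstimulated library of line 3205 was left out of the shared estimate of spread (limma adjusted p = 0.0039 and 0.0040), as did that of line 264 (adjusted p = 0.047 in both). In line 3205 Cyp51 was 0.45 without replicate 1 of the unstimulated pair (limma adjusted p = 0.41) and 1.23 without replicate 2 (adjusted p = 0.0031).

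Several other steps had positive values that did not pass. Sc5d, the lathosterol desaturase, had limma log2 fold changes of 0.73, 0.40 and 0.56 in RAW264.7, line 264 and line 3205. Without replicate 2 of unstimulated line 3205 it passed in that line (1.01, limma adjusted p = 0.028), and without either library of that pair it passed in RAW264.7 (adjusted p = 0.023 in both). Those of Msmo1, the C4-methyl oxidase, were 0.43, 0.45 and 0.61, and those of Hsd17b7, the 3-keto reductase of the same demethylation, were 0.55, 0.44 and 0.66. Idi1, the isopentenyl diphosphate isomerase, stood at 394 and 431 normalized reads before and 502 and 647 after in RAW264.7, with log2 fold changes of 0.47, 0.48 and 0.52 across the lines. Median log2 fold changes over the 30 genes were 0.06, 0.13 and 0.18, against -0.002, -0.009 and -0.004 over all genes tested.

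Comparing libraries of the same replicate number within a line gives 6 pairs for each pair of times. By this count 11 of the 30 genes (36.7%) were higher at 60 than at 0 min in all 6 pairs, beside 12.5% of the 17367 genes compared. They were Hmgcs1, Pmvk, Idi1, Fdft1, Cyp51, Msmo1, Hsd17b7, Sc5d, Insig1, Srebf2 and Fasn. No member was lower in all 6 pairs, beside 12.9% of all genes. By role these were 3 of 6 mevalonate genes, 1 of 3 genes from farnesyl diphosphate to lanosterol, 4 of 8 genes from lanosterol to cholesterol, 2 of 6 regulators or carriers, 1 of 5 fatty acid genes and neither acetyl-CoA gene. The members were chosen with earlier results of these data known, so the count is a description.

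**Figure D2:**
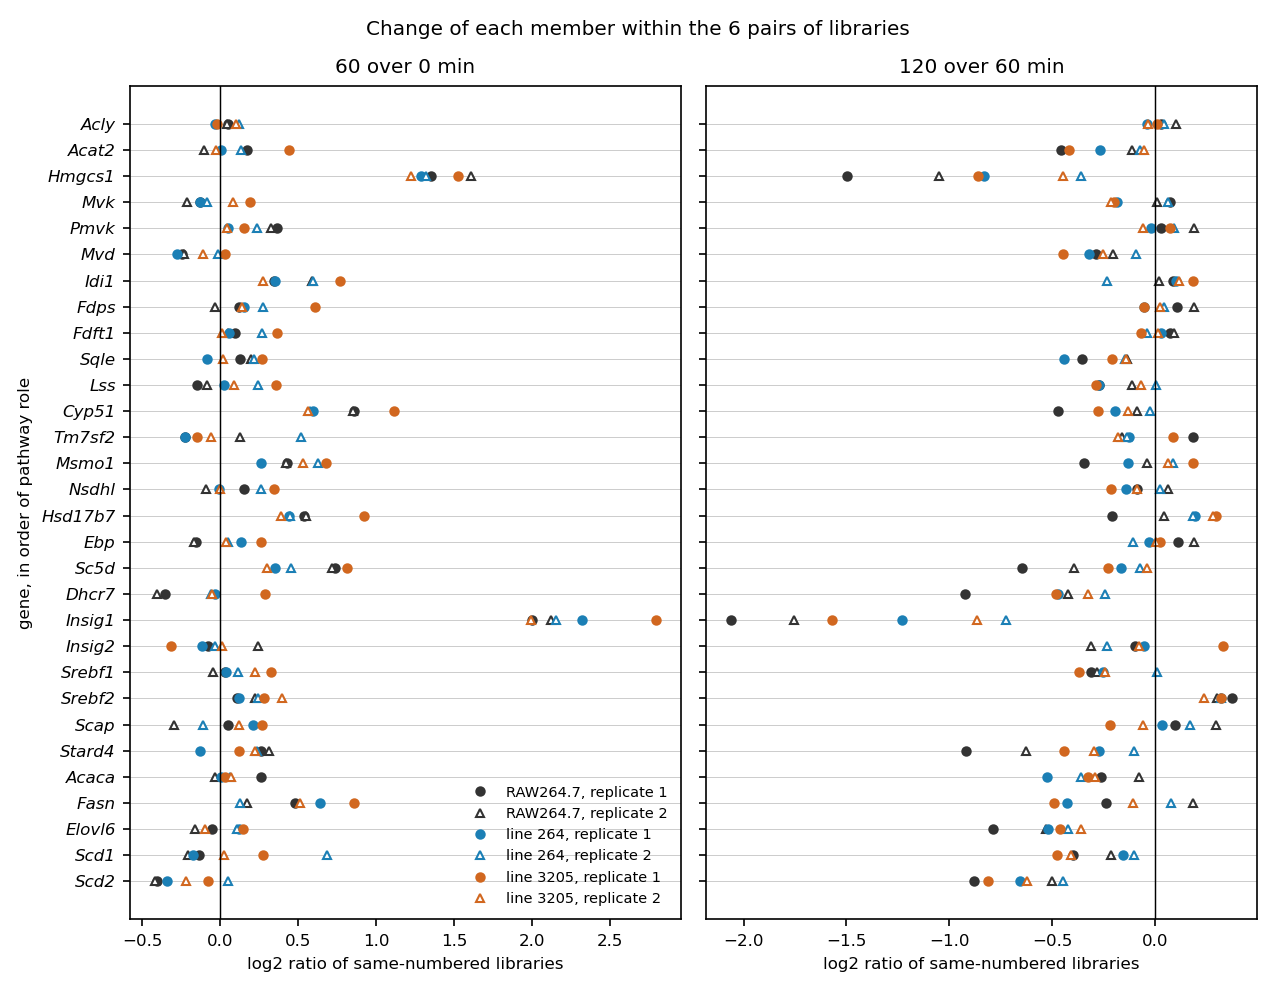
Log2 ratios of same-numbered libraries (x axis) for the 30 genes in pathway order (y axis), 60 over 0 min on the left and 120 over 60 min on the right, with 6 points per gene for 3 lines and 2 replicate numbers. On the left, 11 genes have all 6 points above 0. On the right, 13 genes have all 6 points below 0 and only Srebf2 has all 6 above.

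At 120 min other genes of the pathway passed. Against 0 min, Srebf2, the gene of SREBP-2, rose in RAW264.7 and line 3205, and Scd2, Dhcr7 and Elovl6 fell in RAW264.7. Scd2 is a stearoyl-CoA desaturase, Dhcr7 the reductase that ends one branch of cholesterol synthesis, and Elovl6 the elongase of C16 fatty acids. In RAW264.7 that made 1 of 30 genes higher and 3 of 30 lower, beside 5.08% and 5.52% of all 17450 genes tested. In line 264 there were 0 and 0 by limma (5 at an unadjusted p below 0.05), beside 2.88% and 2.55%, and edgeR on the recovered reads also gave 0 and 0. In line 3205 there were 1 and 0, the 1 being Srebf2, beside 2.89% and 2.14%.

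Srebf2 (chromosome 15, 82147269 to 82205379, GRCm38.p6) stood at 12105 and 11930 normalized reads at 0 min, 13053 and 13904 at 60 min and 16916 and 17131 at 120 min in RAW264.7. Line 264 had 12117 and 10015, 13193 and 11822, and 16489 and 14744. Line 3205 had 12676 and 12536, 15406 and 16479, and 19236 and 19423. It was the only member higher at each later time in all 6 pairs. The limma log2 fold changes at 120 against 0 min were 0.50 ± 0.13 (SE, adjusted p = 0.033) in RAW264.7, 0.50 ± 0.13 (adjusted p = 0.052) in line 264 and 0.62 ± 0.13 (adjusted p = 0.023) in line 3205. With the replicate block all 3 passed (limma adjusted p 0.0028 to 0.0074). In RAW264.7 and line 3205 the call was lost without any 1 of the 4 libraries compared (limma adjusted p 0.15 to 0.17 and 0.068 to 0.12), and the log2 fold changes stayed between 0.49 and 0.51 and between 0.61 and 0.62.

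Scd2 (chromosome 19, 44293676 to 44306864) fell from 69067 and 67652 normalized reads at 0 min to 28291 and 35766 at 120 min in RAW264.7, with 52048 and 50645 at 60 min. Its limma log2 fold change was -1.10 ± 0.24 (SE, adjusted p = 0.018). Line 264 had 88220 and 53457, 69508 and 55330, and 44152 and 40627 at the 3 times, and line 3205 had 50898 and 61965, 48240 and 53180, and 27518 and 34488. The 120 min libraries lay below the 0 min libraries in every line, and the limma log2 fold changes of -0.70 (adjusted p = 0.15) and -0.87 (adjusted p = 0.080) did not pass in lines 264 and 3205. With the replicate block the fall in line 3205 passed (limma adjusted p = 0.028). The fall in line 264 passed without replicate 2 of its unstimulated pair (-1.06, limma adjusted p = 0.043).

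Dhcr7 (chromosome 7, 143823167 to 143848410) fell from 2533 and 2693 normalized reads to 1045 and 1514 in RAW264.7, with 1982 and 2033 at 60 min, a limma log2 fold change of -1.05 ± 0.24 at 120 min (SE, adjusted p = 0.021). Line 264 had 2387 and 2071, 2332 and 1988, and 1682 and 1681, and line 3205 had 1504 and 2311, 1834 and 2230, and 1314 and 1781. Only in line 3205 did the 0 and 120 min libraries overlap. The log2 fold changes at 120 min were -0.40 (limma adjusted p = 0.44) and -0.28 (adjusted p = 0.67) in lines 264 and 3205.

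Elovl6 (chromosome 3, 129532386 to 129638495) fell from 2781 and 2986 normalized reads to 1548 and 1847 in RAW264.7, with 2676 and 2667 at 60 min, a limma log2 fold change of -0.77 ± 0.21 (SE, adjusted p = 0.042). Line 264 had 2346 and 2568, 2555 and 2762, and 1778 and 2063, and line 3205 had 2481 and 3663, 2750 and 3428, and 1994 and 2672. The values at 120 min were -0.36 and -0.39 in these lines and did not pass the limma test (adjusted p = 0.42 and 0.42). The RAW264.7 calls of Dhcr7, Scd2 and Elovl6 were not stable to leaving out a library. Elovl6 was lost without any 1 of the 4 libraries compared (limma adjusted p 0.091 to 0.24). Dhcr7 and Scd2 were kept only without replicate 2 of the 120 min pair (limma adjusted p = 0.026 and 0.047) and were lost without any other (0.099 to 0.17).

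The replicate block changed these counts. With it 3 genes were higher and 4 lower in RAW264.7 (beside 11.3% and 12.4% of all genes), 4 and 1 in line 264 (7.77% and 8.61%), and 7 and 1 in line 3205 (7.18% and 7.12%). Idi1 and Cyp51 joined the higher genes in RAW264.7, with Stard4, a carrier of cholesterol between membranes, joining the lower ones. In line 264 the block added Hmgcs1, Hsd17b7, Insig1 and Srebf2 as higher and Acaca, the acetyl-CoA carboxylase, as lower. In line 3205 the 7 higher genes were Hmgcs1, Idi1, Cyp51, Msmo1, Hsd17b7, Insig1 and Srebf2. In the fit with no replicate term, the line 3205 values moved with its unstimulated pair. Without replicate 1 of that pair none of the 7 passed, with limma log2 fold changes of 0.53 for Insig1, 0.45 for Hsd17b7, 0.28 for Idi1, 0.25 for Cyp51, 0.50 for Msmo1 and 0.45 for Hmgcs1. Without replicate 2 these were 1.83, 1.44, 1.06, 1.02, 0.96 and 0.99, and Hsd17b7, Idi1, Cyp51 and Msmo1 passed (limma adjusted p 0.020 to 0.040). By the count of pairs, 9 of 30 genes were higher at 120 than at 0 min in all 6 (beside 18.9% of all genes), and Mvk, Mvd, Dhcr7, Acaca, Scd2 and Elovl6 were lower in all 6 (20.0%, beside 20.7%).

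**Figure D3:**
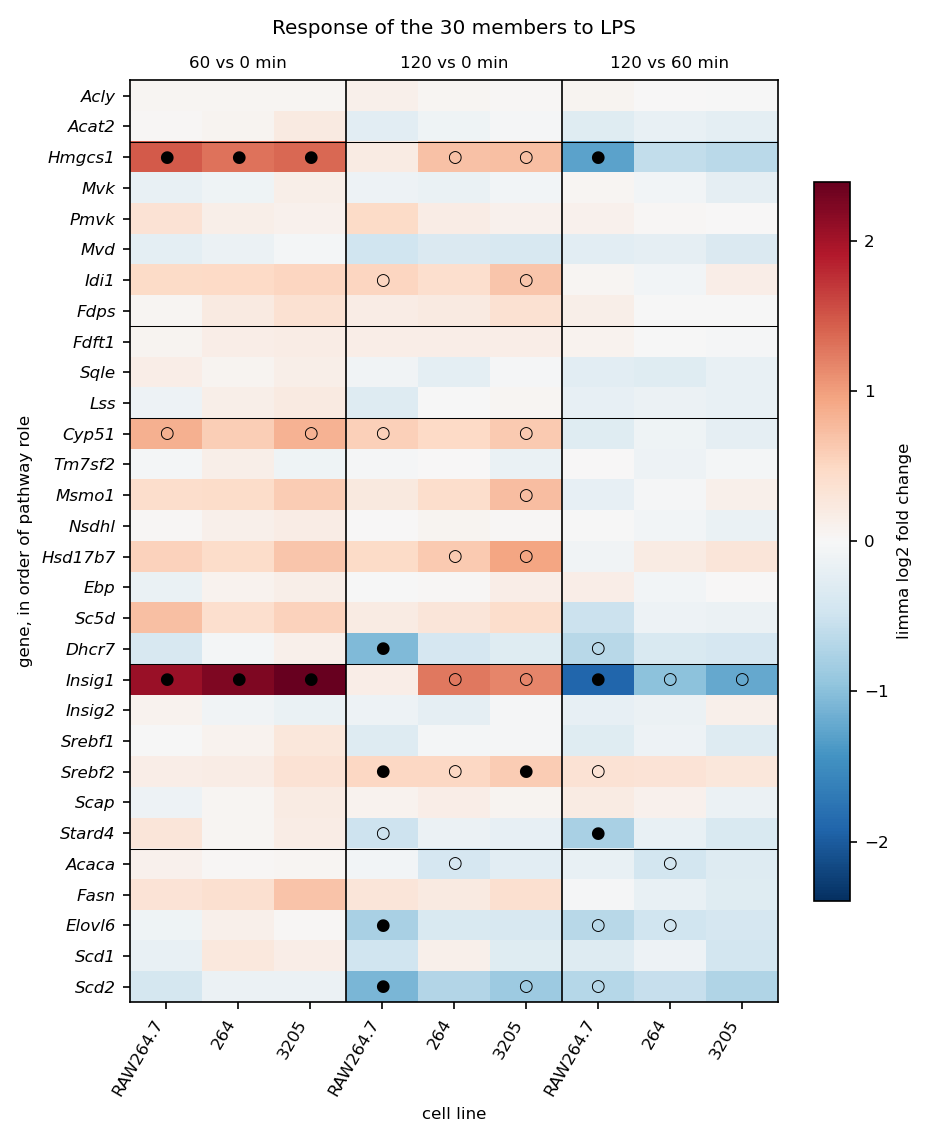
Limma log2 fold changes (colour, red higher and blue lower) of the 30 genes in pathway order (y axis) for 3 lines (x axis) in 3 comparisons of LPS times. Filled circles mark adjusted p below 0.05 without a replicate term, open circles only with the replicate block. Hmgcs1 and Insig1 are called in every line at 60 min, and the falls at 120 min called without the block are in RAW264.7, with further falls called in lines 264 and 3205 only with it.

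The step from 60 to 120 min was compared in 1 fit of all 18 libraries. In RAW264.7 Hmgcs1, Stard4 and Insig1 fell and no member rose (3 and 0 of 30, beside 3.88% and 3.42% of 17367 genes). In line 264 (1.14% and 1.15% of all genes) and line 3205 (1.19% and 1.09%) no member passed by limma. At an unadjusted p below 0.05 there were 5 and 6 members in those lines, and edgeR on the recovered reads gave 0 in both. The comparison shares its 60 min libraries with that of 60 against 0 min, so a high value at 60 min enters both.

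Hmgcs1 returned to 5471 and 8384 normalized reads at 120 min in RAW264.7, a limma log2 fold change of -1.27 ± 0.25 from 60 min (SE, adjusted p = 0.0073). Line 264 had 7872 and 9040 (-0.60, adjusted p = 0.34 by limma) and line 3205 had 7957 and 12438 (-0.65, adjusted p = 0.29). In RAW264.7 the 120 min libraries overlapped the 0 min ones, and in lines 264 and 3205 they lay above them. At 120 min RAW264.7 had 3094 and 4603 normalized reads of Insig1, line 264 had 4928 and 7606 and line 3205 had 3409 and 7882. Its limma log2 fold changes from 60 min were -1.91 ± 0.42 (SE, adjusted p = 0.015), -0.98 ± 0.42 (adjusted p = 0.38) and -1.22 ± 0.42 (adjusted p = 0.22). With the replicate block the fall of Insig1 passed in all 3 lines (limma adjusted p = 2.0e-04, 0.029 and 0.0093).

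Stard4 stood at 4575 and 4342 normalized reads at 0 min, 5472 and 5383 at 60 min and 2893 and 3487 at 120 min in RAW264.7. Line 264 had 4886 and 3845, 4463 and 4518, and 3697 and 4213, and line 3205 had 4326 and 4722, 4710 and 5520, and 3463 and 4490. The fall from 60 to 120 min in RAW264.7 had a limma log2 fold change of -0.77 ± 0.15 (SE, adjusted p = 0.0080). With the block, Dhcr7, Scd2 and Elovl6 joined the lower genes in RAW264.7 and Srebf2 became higher, which made 6 and 1 of 30 beside 9.75% and 8.75% of all genes. The block also made 3 genes lower in line 264, Insig1, Acaca and Elovl6 (beside 4.26%), and 1 in line 3205, Insig1 (3.89%), with 0 higher in both (3.66% and 3.07%). By the count of pairs, 13 of 30 genes (43.3%) were lower at 120 than at 60 min in all 6 pairs, beside 17.5% of all genes, and 1, Srebf2, was higher in all 6 (15.3%). Among the 13 were 4 of 5 fatty acid genes (Acaca, Scd1, Scd2 and Elovl6). The calls of Hmgcs1, Insig1 and Stard4 in RAW264.7 were lost without 2, 3 and 3 of the 4 single libraries (limma adjusted p 0.058 to 0.14).

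Against RAW264.7, 1 of the 30 genes passed in line 3205 and none in line 264. Sqle, the squalene epoxidase (chromosome 15, 59315092 to 59331193, GRCm38.p6), was 1.5-fold higher in line 3205 than in RAW264.7 at 0 min and 1.48-fold higher at 60 min. No other member passed in any of the 6 comparisons over all libraries without a replicate term. Cyp51 in line 264 at 60 min (log2 difference -0.59) passed once either unstimulated library of line 3205 was left out of the shared estimate of spread. Sqle in line 3205 at 120 min passed then as well. Line 264 had 0 of 30 higher and 0 lower at each time by limma, with 1, 2 and 0 members at an unadjusted p below 0.05 at 0, 60 and 120 min, and 0 by edgeR. Over all genes, 7.61% were higher and 5.57% lower in line 264 at 0 min, 8.46% and 6.8% at 60 min, and 7.33% and 6.13% at 120 min. In line 3205 the shares were 8.42% and 5.89%, 8.95% and 6.46%, and 7.94% and 5.99%, beside 1, 1 and 0 members higher and 0 lower. The median log2 difference over the 30 genes ran from -0.18 (line 3205 at 0 min) to 0.08 (line 264 at 120 min).

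In line 3205 Sqle had 8728 and 11952 normalized reads at 0 min, 10514 and 12083 at 60 min and 9086 and 10958 at 120 min. RAW264.7 had 7092 and 6546, 7744 and 7517, and 6060 and 6829 at these times, and line 264 had 7469 and 5997, 7054 and 6970, and 5198 and 6301. All 6 libraries of line 3205 lay above all 12 of the others, whose highest value was 7744. The limma log2 differences of line 3205 from RAW264.7 were 0.58 ± 0.16 (SE, adjusted p = 0.040) at 0 min, 0.56 ± 0.16 (adjusted p = 0.044) at 60 min and 0.63 ± 0.19 (adjusted p = 0.052) at 120 min, and all 3 passed with the replicate block (limma adjusted p 0.016 to 0.019). The call at 60 min was lost without any 1 of the 4 libraries (limma adjusted p 0.090 to 0.24). That at 0 min was lost without either RAW264.7 library or replicate 2 of line 3205 (adjusted p 0.12 to 0.20). It was 0.36 without that replicate 2 (limma adjusted p = 0.17) and 0.81 without replicate 1 (adjusted p = 0.012). Sqle did not pass for LPS in any line (limma log2 fold changes -0.23 to 0.16 against 0 min).

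With replicate 2 of unstimulated line 3205 left out, limma log2 differences from RAW264.7 at 0 min were -1.22 for Insig1 and -0.90 for Lss. Those of Dhcr7, Fdps and Cyp51 were -0.80, -0.74 and -0.67. None of these members passed with both libraries. In replicate 2 itself, Insig1 (3601 normalized reads) lay above both RAW264.7 libraries (3230 and 3562), as did Cyp51 (6530 against 6335 and 5805). Fdps and Lss lay between the RAW264.7 libraries, and only Dhcr7 (2311) lay below both (2533 and 2693). Without replicate 1 of unstimulated line 264, the limma log2 difference of Scd1 there was -1.85. Its direction depended on the library kept. Replicate 1 (13957 normalized reads) lay above both RAW264.7 libraries (11259 and 9884) and replicate 2 (2917) below them, and Scd1 did not pass over both. The replicate block added Insig2, the second Insig protein, as higher in both lines at 0 and 120 min, with limma log2 differences of 0.58 (adjusted p = 0.020) and 0.49 in line 264 and 0.55 and 0.65 (adjusted p = 0.0081) in line 3205. It also added Elovl6 as higher in line 3205 at 120 min (0.45, limma adjusted p = 0.019), and in line 264 Cyp51 as lower (-0.59, adjusted p = 0.045) and Ebp as higher (0.41, adjusted p = 0.038) at 60 min and Idi1 (-0.53, adjusted p = 0.041) and Acaca (-0.47, adjusted p = 0.0081) as lower at 120 min. Ebp is the sterol isomerase. Over all genes the block gave 12.7% higher and 10.6% lower at 0 min, 14.3% and 12.6% at 60 min and 13.5% and 11.8% at 120 min in line 264. In line 3205 it gave 14.4% and 12.1%, 15.5% and 12.4%, and 14.7% and 12.6%. The summed macrophage markers and the B cell markers given above also differ between the lines, and their part in these differences was not tested. Single markers did not all move with their sum. Before LPS, Lyz2 was at 265152 and 225919 normalized reads (RAW264.7), 38736 and 66339 (line 264), 108001 and 78105 (line 3205). Fcgr1 ran the other way, at 2753 and 3320, 6090 and 7041, then 5664 and 7839. Of the highest B cell sum, 152 in unstimulated line 3205 (replicate 1), Cd79b alone gave 148. In bulk RNA, fewer cells of a type and less RNA per cell cannot be told apart.

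**Figure D4:**
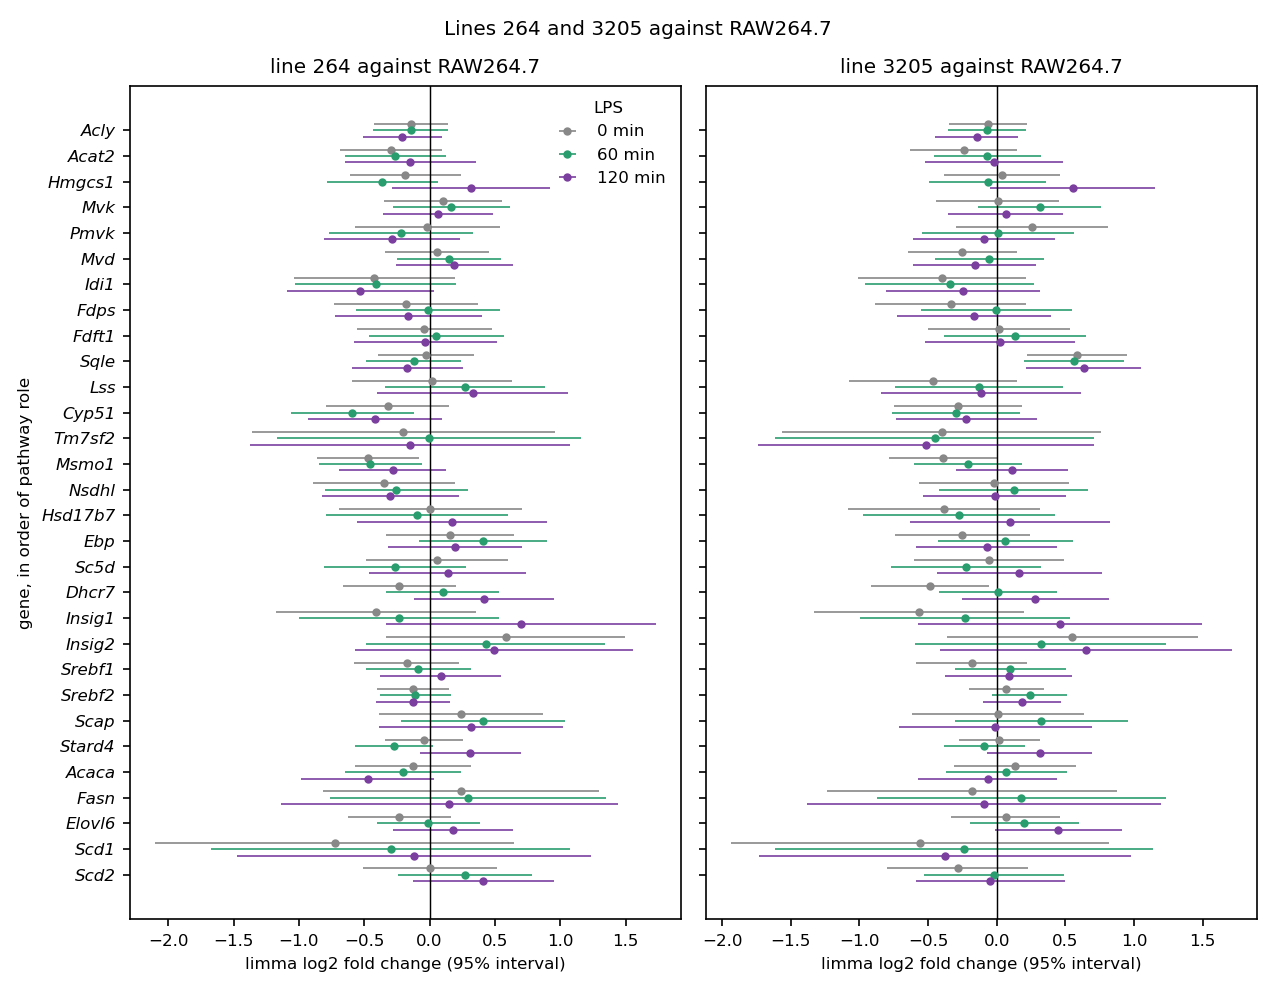
Limma log2 differences from RAW264.7 (x axis, points with 95% intervals) of the 30 genes in pathway order (y axis) at 0, 60 and 120 min of LPS, line 264 on the left and line 3205 on the right. Sqle in line 3205 lies between 0.56 and 0.63 at the 3 times with intervals above 0, and most other intervals include 0.

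The response of each of these lines was then tested against that of RAW264.7. None of the 30 genes passed in any of the 4 comparisons, with or without the replicate block. The background was 1 higher and 2 lower of 17301 genes (0.00578% and 0.0116%) for line 264 at 60 min, 0 and 1 (0% and 0.00578%) for line 3205 at 60 min, 1 and 3 of 17450 genes (0.00573% and 0.0172%) for line 264 at 120 min, and 0 and 1 (0% and 0.00573%) for line 3205 at 120 min. With the block these shares were 0.0462% and 0.0809%, 0.0347% and 0.0462%, 0.063% and 0.195%, and 0.287% and 0.395%. At an unadjusted p below 0.05 there were 0, 0, 0 and 1 members, and edgeR on the recovered reads gave 0 in each. The intervals remained wide. For Insig1 at 120 min the response was 1.11 log2 units larger in line 264 than in RAW264.7 (95% interval -0.36 to 2.57) and 1.02 larger in line 3205 (-0.44 to 2.49). For Hmgcs1 at 120 min the differences were 0.50 (-0.35 to 1.35) and 0.52 (-0.34 to 1.37). For Dhcr7 they were 0.65 (-0.11 to 1.41) and 0.77 (0.01 to 1.53), with a limma adjusted p of 1 for both.

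Members differed in how far the replicate libraries of a group agreed. Fasn, the fatty acid synthase, was higher in replicate 2 in 9 of 9 groups, by 1.30 to 2.34 times. It stood at 13719 and 22107, 19104 and 24913, and 16197 and 28311 normalized reads at 0, 60 and 120 min in RAW264.7. Line 264 had 14262 and 29613, 22264 and 32270, and 16568 and 34100, and line 3205 had 10184 and 23242, 18469 and 33095, and 13147 and 30739. Its libraries overlapped between 0 and 60 min in each line, yet it was higher at 60 and at 120 than at 0 min in all 6 same-numbered pairs.

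Idi1, Hsd17b7, Insig1, Scap and Acaca were also higher in replicate 2 in 9 of 9 groups, which with Fasn made 6 of 30 (20.0%, beside 12.3% of all genes). Idi1 stood at 533 and 655 normalized reads at 120 min in RAW264.7. Line 264 had 281 and 336, 359 and 509, and 386 and 433 at the 3 times, and line 3205 had 239 and 409, 407 and 494, and 463 and 537. For Cyp51 at 120 min RAW264.7 had 8263 and 9849, line 264 had 6559 and 6965 and line 3205 had 6805 and 8805.

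Insig2 was lower in replicate 2 in 9 of 9 groups, as was Tm7sf2, a sterol reductase (2 of 30, 6.67%, beside 12.3% of all genes). Insig2 stood at 1170 and 783, 1106 and 924, and 1032 and 745 normalized reads at 0, 60 and 120 min in RAW264.7. Line 264 had 2001 and 1029, 1844 and 1006, and 1778 and 855, and line 3205 had 1885 and 1045, 1512 and 1055, and 1899 and 999. Within each replicate number every value of lines 264 and 3205 was above the RAW264.7 value of the same time. Its paralogue Insig1 rose at 60 min in every line, while the limma log2 fold changes of Insig2 lay between -0.22 and 0.08 against 0 min.

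Scd1, a second stearoyl-CoA desaturase, differed most between the libraries of line 264, with 13957 and 2917, 12372 and 4699, and 11090 and 4379 normalized reads at the 3 times. RAW264.7 had 11259 and 9884, 10261 and 8562, and 7771 and 7386, and line 3205 had 7089 and 7229, 8575 and 7356, and 6157 and 5546. Srebf1, the gene of SREBP-1, stood at 5941 and 6995, 6058 and 6762, and 4888 and 5569 in RAW264.7. Line 264 had 5940 and 5501, 6099 and 5951, and 5123 and 5994, and line 3205 had 4796 and 6721, 6009 and 7830, and 4654 and 6608. Neither gene passed the limma test in any comparison of LPS times.

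**Figure D5:**
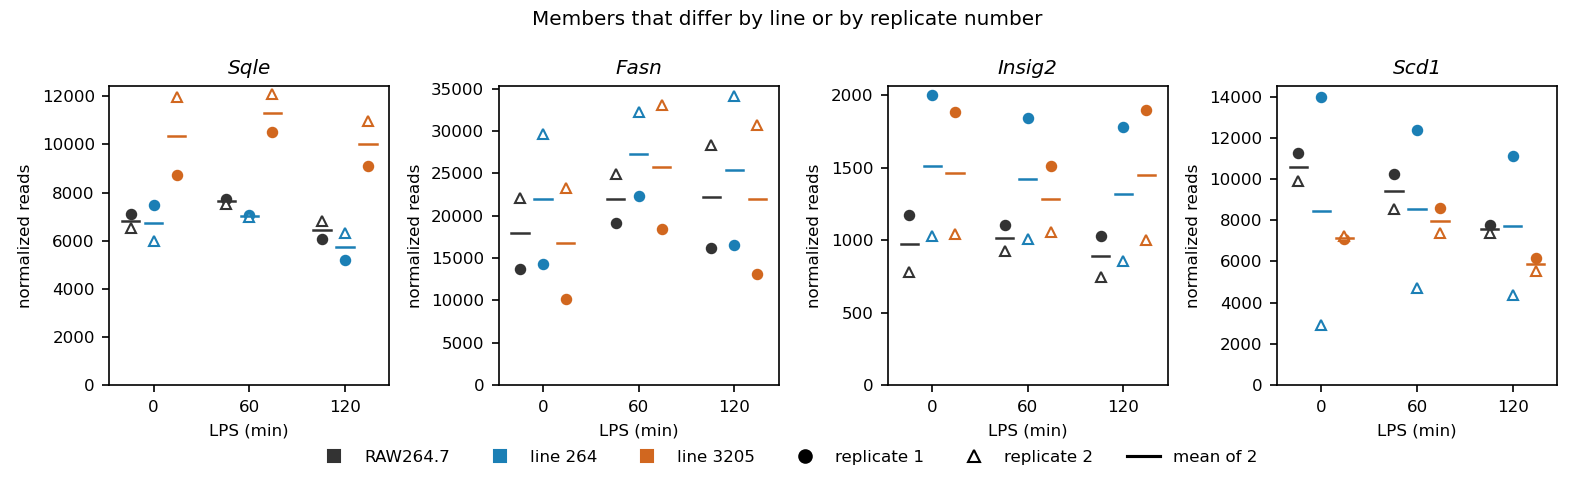
Normalized reads (y axis, linear from 0) of Sqle, Fasn, Insig2 and Scd1 against minutes of LPS (x axis) in RAW264.7, line 264 and line 3205, with circles for replicate 1, triangles for replicate 2 and bars for the mean of both. Sqle is highest in line 3205 at all 3 times, Fasn triangles and Insig2 circles are higher in every group, and Scd1 in line 264 is split between the replicates.

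The 11 remaining members passed in no comparison of LPS times and in no comparison of lines with RAW264.7 over all libraries, with or without the block. Acly and Acat2, which supply cytosolic acetyl-CoA and acetoacetyl-CoA, had limma log2 fold changes of -0.25 to 0.21 against 0 min. Mvk, Pmvk and Mvd, the mevalonate kinases and decarboxylase, ranged from -0.49 to 0.45, and Fdps, Fdft1 and Lss, which make farnesyl diphosphate, squalene and lanosterol, from -0.31 to 0.37. Tm7sf2 and Nsdhl ranged from -0.15 to 0.17 and Scap from -0.12 to 0.19. Annotated genes overlap 13 of the 30 members. Among them are Insig1 (Gm35223), Srebf2 (Mir33), Scd2 (Mir5114), Elovl6 (Gm35986), Tm7sf2 (Vps51), Fdft1 (Ctsb), Srebf1 (Rai1) and Acaca (Tada2a), and the others are Acat2, Mvd, Fdps, Lss and Acly. Whether reads were counted by strand is not stated, so the values of these 13 are less certain.

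Genes of the wider pathway were also counted. Of 31 tested genes of other lipid synthesis and SREBP processing, 0 rose and 1 fell in RAW264.7 at 60 min (beside 1.66% and 1.32% of all genes), and 1 rose and 4 fell at 120 min (5.08% and 5.52%). At 120 min 1 rose and 2 fell in line 264 (2.88% and 2.55%), and 1 rose and 1 fell in line 3205 (2.89% and 2.14%). Acsl4, an acyl-CoA synthetase for arachidonate, was the gene that rose in each line, by 0.70, 0.73 and 0.79 on the limma log2 scale (adjusted p = 0.016, 0.021 and 0.016). Of 8 tested genes of sterol sensing and efflux, Abcg1 and Mylip fell in RAW264.7 at 60 min. Abcg1, a cholesterol exporter, fell by 0.83 at 60 min (limma adjusted p = 0.0074) and by 2.20 at 120 min (adjusted p = 0.0062) in RAW264.7, and fell by 1.87 at 120 min in line 264 (adjusted p = 0.022). Mylip, the ligase that targets lipoprotein receptors, fell by 1.74 at 60 min (limma adjusted p = 0.031).

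Against RAW264.7 at 0 min, 5 of the 31 other lipid genes were higher and 3 lower in line 264 (beside 7.61% and 5.57% of all genes), and 3 higher and 4 lower in line 3205 (8.42% and 5.89%). Me1, the malic enzyme that supplies NADPH, was higher by 2.12 in line 264 and 3.10 in line 3205 on the limma log2 scale (adjusted p = 0.014 and 0.0018). Fads1, a fatty acid desaturase, was lower in both, with limma log2 differences of -0.65 and -0.84 (adjusted p = 0.0067 and 0.0017). Soat1, which esterifies cholesterol, was higher by 0.45 and 0.77 (limma adjusted p = 0.016 and 7.9e-04).

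The authors' deposited table gives log2 fold changes for the same lines. In the authors' deposited table none of the 30 genes had an adjusted p below 0.05 in any of 10 comparisons, and the lowest was 0.42. Its p-values for these genes matched a test against an absolute log2 fold change of 1 to within 1.61e-06. In the authors' deposited table Hmgcs1 at 60 against 0 min stood at 1.48 (RAW264.7), 1.30 (line 264) and 1.35 (line 3205), and Insig1 at 2.07, 2.23 and 2.28.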

How the data were processed

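RNA libraries were made with the Illumina TruSeq protocol, per the labels' protocols. Reads were trimmed (Trim Galore 0.5.0), aligned to mm10 (STAR 2.4.2) and counted (featureCounts, Subread 1.4.6), and DESeq2 under R 3.4.0 is named, per the submitters' processing notes. The deposited signal per gene and library is a scaled count: dividing a library's values by what 1 read is worth gave whole reads, within 0.1, for 100.0% of them. Per the file headers the authors also deposited log2 fold changes with standard errors, and p-values with adjusted values, for each comparison. Counts had been planned for, and the test for normalized values was used since the unit differed.

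limma 3.58.1 with an intensity trend (R 4.3.3) was fitted separately to the 60 and 120 min tables (12 libraries each), on log2(value + 1), with a mean per group, for genes with a mean of at least 1. A call was an adjusted p (Benjamini-Hochberg over all genes) below 0.05. The 0 min values are the same in both tables, and all 18 libraries were fitted together for 120 against 60 min. On simulated data for the RAW264.7 response at 60 min (17310 genes) 88 of 100 genes changed by 1 on the log2 scale were recovered. Among genes with a mean of at least 50, 6 of 193 calls were false, with 19.0% false over all genes. The simulated libraries were independent, with the same dispersion for every gene and no shift by replicate number. These rates may therefore not hold for genes whose real libraries differ more within a group.

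Same-numbered libraries deviated together: over 15 pairs of groups, correlations of replicate 1 minus 2 were 0.16 to 0.56 (60 min table) and 0.22 to 0.56 (120 min table). The pairing comes from these data and not from the labels. A fit with the replicate number as a block stands beside the results it changes. For each gene the block takes the same shift in all groups. Alternatives were other pseudocounts (0.5 and 5), no filter, no trend, TMM, the replicate block, only the 4 libraries of a line and leaving out each library. edgeR 4.0.16 on recovered reads, the joint fit and the comparisons of 120 with 60 min were added after seeing the data. Members, gene lists and the rule for named genes (a panel of 12, and up to 3 called members of each direction per comparison) were chosen with earlier results of these data known. The ChIP tables and the other samples were not used here: none of the 30 genes is among the 193 and 195 genes of the primary macrophage tables.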

Additional observations from a re-analysis of the deposited data

How the results depend on the processing

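Members called over all libraries by limma, with or without the block, or by edgeR kept their direction in the alternatives run, with 1 exception. That was Insig2 in line 264 against RAW264.7 at 120 min. It ran from -0.037 without replicate 1 of line 264 at 120 min to 1.02 without replicate 2. Members named only for a fit with 1 library left out were not part of this check. Of the counts of members called, 52 of 352 moved over the settings other than leaving out a library, and the cause was not tested. Pseudocounts of 0.5 and 5 moved none. Without a trend in limma, RAW264.7 at 120 min had 0 higher and 1 lower, line 264 at 60 min 1 higher, line 3205 at 120 min 0 higher, and line 3205 against RAW264.7 had 0 higher at 0 and at 60 min. Without the filter on low values the last 2 were also 0, and with the 0 min libraries of the 120 min table the first of them was 0. With TMM scaling line 3205 at 120 min had 2 higher, and 1 higher against RAW264.7. With all 18 libraries in 1 fit line 264 at 120 min had 1 higher, and line 3205 had 2 higher and 1 lower, and 1 higher against RAW264.7 at 120 min. From only the 4 libraries of a line, 4, 1 and 0 members were higher at 60 min in RAW264.7, line 264 and line 3205, and 2 and 0 at 120 min in RAW264.7 and line 3205. edgeR on recovered reads gave 0 higher in RAW264.7 at 120 min and 1 higher in line 3205 against RAW264.7 at 120 min.

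With the replicate block 3 members were higher at 60 min in RAW264.7 and in line 3205. At 120 min 3 were higher and 4 lower in RAW264.7, 4 higher and 1 lower in line 264, and 7 higher and 1 lower in line 3205. From 60 to 120 min the block gave 1 higher and 6 lower in RAW264.7, 3 lower in line 264 and 1 lower in line 3205. Against RAW264.7 the block gave line 264 1 higher at 0 min, 1 higher and 1 lower at 60 min and 1 higher and 2 lower at 120 min, and line 3205 2 higher at 0 min and 3 higher at 120 min. edgeR with the replicate block gave 3 higher and 2 lower in line 264 at 120 min, 7 and 1 in line 3205, 1 and 6 from 60 to 120 min in RAW264.7, 3 lower in line 264 and 1 lower in line 3205. Against RAW264.7 it gave line 264 1 higher at 0 min, 3 higher at 60 min and 1 higher and 1 lower at 120 min, and line 3205 2 higher at 0 min and 3 at 120 min. The other counts of members called were the same with the limma block as without it.

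Leaving out 1 library, counts ran from 1 to 1 higher in RAW264.7 at 60 min, 0 to 1 in line 264 and 0 to 4 in line 3205. At 120 min they ran from 0 to 0 higher and 0 to 2 lower in RAW264.7, 0 to 1 lower in line 264 and 0 to 4 higher in line 3205. From 60 to 120 min 0 to 3 were lower in RAW264.7. Against RAW264.7 0 to 1 were lower in line 264 at 0 min, and in line 3205 0 to 1 were higher and 0 to 5 lower at 0 min and 0 to 0 higher at 60 min. These ranges cover only the leaving out of a library of the groups compared. Leaving out a library of another group changed the shared estimate of spread and added calls that the ranges do not hold. At 60 min these were Cyp51 and Sc5d in RAW264.7 and Cyp51 in line 264. At 120 min they were Cyp51 (higher) in RAW264.7 and Scd2 (lower) in line 3205. From 60 to 120 min they were Dhcr7, Elovl6 and Scd2 (lower) in RAW264.7. With 2 libraries per group a lone library is assumed to vary like the other groups. Depth was 13.1 M to 53.9 M reads, and every member passed the filter on low values.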
